A study of Mus musculus with 6 samples.

Results

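Loss of the adhesion receptor gene Adgrg3, still labelled by its older name Gpr97, was compared with the wild type over both surgeries in mouse kidney. The arrays were chosen by their labels alone and are all 6 of the series: 2 from Gpr97-deficient mice against 4 from wild-type mice. The wild-type arrays comprised 2 after a sham operation and 2 after renal ischaemia/reperfusion injury (IRI), in which blood flow to the kidney is stopped and restored. The Gpr97-deficient arrays comprised 1 of each surgery. Genes were then singled out where both Gpr97-deficient arrays lay outside the range of all 4 wild-type arrays. Of 19616 genes tested, 848 were above that range and 1279 were below it.

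Adhesion G protein-coupled receptors join a long extracellular region to a bundle of transmembrane helices, and most are cleaved in between by their own autoproteolysis. Gpr97 is known mainly from leukocytes, above all granulocytes. In the kidney, injury by interrupted blood flow damages the proximal tubule, loosens the endothelium and draws in neutrophils and macrophages. The series title links the receptor to semaphorin 3A, a guidance cue that signals through neuropilin and plexin receptors.

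All mice are labelled male. Strain, age, the allele, the cells that lacked the gene, the duration of ischaemia, the time of collection and any pooling of animals are not stated in the labels. Each title carries its own number, but nothing in the labels says that these mark separate animals. The p-values therefore measure the spread between these samples, which may be partly technical. Between 63.0% and 71.1% of probes were well above background on an array. Kidney identity was clear: 41 of 41 tested proximal tubule genes, 22 of 22 collecting duct genes and 19 of 19 podocyte genes were well above background on all 6 arrays. Slide 2 carried both Gpr97-deficient arrays together with sham 2 and injured 1 of the wild type. Sham 1 and injured 2 of the wild type came from slide 1, which was read with another scanner, so slide 1 held no Gpr97-deficient array. Wild-type injured array 1 went against its label: 0 of 4 Y-linked genes were well above background there, against 4 of 4 on each other array, and Xist stood at 4.05 against -5.45 or lower elsewhere. Without that array 1712 genes lay above the range of the other 3 wild-type arrays and 2412 below it, and these hold all 848 and 1279 by construction. By Xist and the Y-linked genes the 2 wild-type injured arrays did not come from the same animal. Signals are given as log2 values with each array's own 75th percentile set to 0.

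Adgrg3 itself was the gene farthest below the range. Its brighter probe (transcript NM_173036, chr8:97568989-97569048 in mm9) read 0.20 and 0.02 on the wild-type sham arrays and 1.06 and 1.18 on the wild-type injured arrays. On the Gpr97-deficient arrays it read -5.38 after sham and -5.75 after injury. The groups did not overlap, and 5.40 log2 units separated them. The mean difference was -6.18 (SE 0.35, n = 2 against 4; limma adjusted p 0.19), the farthest any gene came towards the threshold. The probe was well above background on all wild-type arrays and on 1 of the 2 Gpr97-deficient arrays. Within slide 2 the difference was -6.11.

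A second Adgrg3 probe lies farther upstream in the transcript. It is shown here because it reports on another stretch of the gene than the brighter probe.

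Adgrg3 probe, chr8:97563770-97563829 (mm9, plus strand): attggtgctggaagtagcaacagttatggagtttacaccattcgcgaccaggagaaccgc

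The 60 bases hold 0 stop codons when read from the first base. This probe read -6.36 and -5.45 on the wild-type sham arrays and -4.61 and -3.85 on the wild-type injured arrays. It read -7.67 and -7.75 on the Gpr97-deficient arrays. The probe was well above background on the 2 wild-type injured arrays only, so the other signals have no order and no difference is given.

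No gene passed in the test across all genes. With limma 0 of 19616 genes (0%) had an adjusted p under 0.05 for genotype with surgery as a term, and 639 (3.26%) had an unadjusted p under 0.05, where 981 would be 5% of the genes. With a variance trend and a robust prior 1 gene was called, Adgrg3. The range rule is a description and not a test. Above the range lay 4.32% of the genes tested, and below it 6.52%. For 2 arrays against 4, the smallest one-sided p of an exact permutation test is 0.0667, so no single gene could pass by that route. If all 6 arrays were interchangeable, a share of 0.0667 of the genes would lie on each side, and both shares here were under it.

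Most distances from the range were small. The median gap was 0.09 above and 0.10 below, and 39 genes (0.199%) were above by at least 0.5 and 117 (0.596%) below. Of the 848 genes above, 700 were well above background on all 6 arrays, and of the 1279 below, 881. A further 220 genes below were well above background on neither Gpr97-deficient array, so their low side is only a bound, and 23 genes above were well above background on no wild-type array. At a margin of 0.5 and with detection on all 6 arrays, 18 genes remained above and 16 below. At the threshold itself Ptdss1, Slain1 and Zfp553 were just above and Pigo, Tmem88 and Olfr357 just inside. On the lower side Igsf10, Nsd1 and Katna1 were just outside and Olfr187, Bcl6b and Ranbp6 just inside. All of these lay within 0.005 of the limit.

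Members were rarely genes that differed between the surgeries. Of the genes above the range 1.53% differed by more than 1 log2 unit between injured and sham arrays, and of those below 1.25%, against 7.34% of all genes tested. A gene that surgery moves spreads the wild-type range, which makes the rule harder to meet. The highest wild-type array was on slide 2 for 607 of the 848 genes above (71.6%, against 45.9% of all genes tested), and the lowest was on slide 2 for 1020 of the 1279 genes below (79.7%, against 47.6%). The part of the slide in the result was not tested. Within slide 2 the differences had a median of 0.31 for the genes above and -0.34 for the genes below, and the rule itself fixes the sign of each.

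Other probes of the same genes gave a partial check. Among 460 other probes of the genes above, 84 (18.3%) were also above the range and 16 were below it. Of 432 other probes of the genes below, 100 (23.1%) were also below. In genes outside neither way, 2.42% of 9395 other probes were above and 7.14% below. Most second probes of the members thus stayed inside the range. Probes of a gene share its RNA and its arrays.

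The counts depend on single arrays. Without wild-type injured array 1 there were 1712 genes above and 2412 below, without wild-type sham array 2 there were 1692 and 2285, and without wild-type injured array 2 there were 1295 and 1850. Leaving out the Gpr97-deficient sham array gave 2489 and 3468, and leaving out the injured one 3239 and 3153. A narrower set of arrays always widens the lists. The split moved with the scaling: 39.9% of the genes outside were above, against 51.2% with quantile normalization, 51.5% with the authors' deposited values and 17.2% with normexp background correction. Normexp shifted the median difference of all genes from -0.01 to -0.17.

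**Figure D1:**
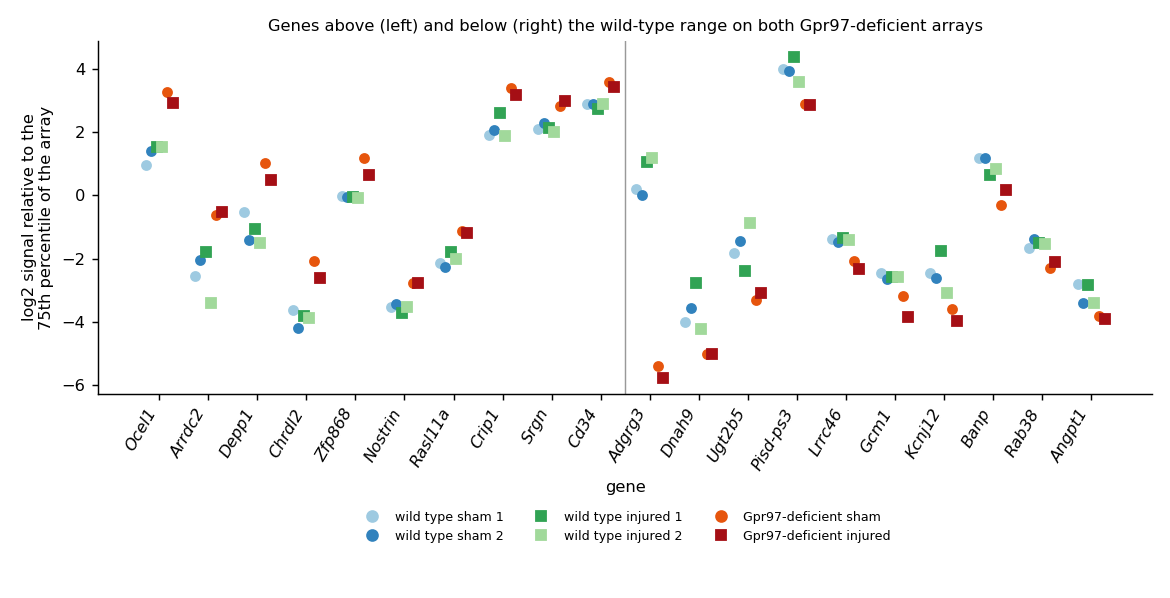
Log2 signal, with each array's 75th percentile at 0, for 10 genes above and 10 genes below the wild-type range, 1 point per array. Circles are sham and squares injured kidneys, and in each of these genes both Gpr97-deficient points lie on the same side of all 4 wild-type points.

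Among genes with signal on all arrays, Ocel1, an occludin and ELL domain protein, stood farthest above. It read 0.96 and 1.40 in wild-type sham, 1.53 and 1.51 in wild-type injured, 3.26 in Gpr97-deficient sham and 2.90 in Gpr97-deficient injured kidney. The Gpr97-deficient arrays were 1.73 higher (SE 0.25) and cleared the highest wild-type array by 1.37. Arrdc2, an arrestin domain protein, read -2.56, -2.05, -1.80 and -3.39 in the wild type (sham 1, sham 2, injured 1 and injured 2, the order kept from here on) and -0.62 and -0.53 in the Gpr97-deficient sham and injured kidney. Its difference was 1.87 (SE 0.49), and 1.35 within slide 2. Depp1, an autophagy regulator induced by FOXO factors, read -0.54, -1.40, -1.07 and -1.50 against 1.03 and 0.48. Chrdl2, a secreted BMP antagonist, read -3.61, -4.18, -3.81 and -3.88 against -2.07 and -2.60. None of these 4 genes had a limma adjusted p below 0.99.

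Itga10, an integrin chain that binds collagen, had the largest gap of all named genes above, at 1.57. It was well above background on 1 of 4 wild-type arrays, with -4.20, -5.77, -5.48 and -5.59 against -1.88 and -2.63. Klrb1b, a lectin-like receptor of natural killer cells, was well above background on no wild-type array and was at least 3.32-fold higher in the Gpr97-deficient kidney. Vmn1r54, a vomeronasal receptor, was at least 3.94-fold higher on the same terms. The bounds for Olfr482, an olfactory receptor, and for Adgb, an androglobin, were 1.77-fold and 1.61-fold. These dim genes carry little weight: with normexp background correction the differences of Adgb, Cfap45, Nell2, Olfr1148, Olfr482 and Pga5 were below 0, while those of Itga10 (0.52), Ocel1 (1.82), Arrdc2 (0.89) and Depp1 (1.48) stayed positive.

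Other members above the range had signal on all arrays too. These and the genes of the next paragraph were chosen after their values were seen, from the larger gaps among members well above background on all arrays. Srgn, the proteoglycan core of secretory granules in blood cells and endothelium, read 2.08, 2.28, 2.13 and 2.01 against 2.82 and 2.97. Cd34, a sialomucin of endothelium and progenitor cells, read 2.90, 2.90, 2.71 and 2.89 against 3.57 and 3.42. Crip1, a LIM domain protein, read 1.90, 2.07, 2.59 and 1.86 against 3.40 and 3.16, and a second probe was above the range as well, by 0.48. Rasl11a, a small GTPase, read -2.13, -2.25, -1.80 and -2.02 against -1.14 and -1.18. For Srgn the difference of 0.77 (SE 0.17) was 0.69 within slide 2, and for Cd34 the difference of 0.65 (SE 0.16) was 0.69.

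Below the range the brightest clear member was Pisd-ps3, a pseudogene of phosphatidylserine decarboxylase. It read 3.98, 3.92, 4.35 and 3.56 against 2.88 and 2.86, and RNA of the parent gene can bind to a pseudogene's probe. Ugt2b5, a glucuronosyltransferase, read -1.82, -1.43, -2.38 and -0.88 against -3.30 and -3.07, a difference of -1.56 (SE 0.45). Lrrc46, a leucine-rich repeat protein, read -1.39, -1.48, -1.36 and -1.43 against -2.09 and -2.32. The wild-type arrays of Lrrc46 spanned less than the 0.61 that parted them from the Gpr97-deficient arrays. A second Lrrc46 probe, well above background on all 6 arrays, overlapped and went the other way, with a difference of 0.33. Dnah9, a heavy chain of the dynein of motile cilia, read -3.99, -3.57, -2.77 and -4.23 against -5.02 and -5.01. Gcm1, the glial cells missing factor known from placenta and kidney, read -2.47, -2.65, -2.58 and -2.59 against -3.17 and -3.83. Kcnj12, an inward rectifier potassium channel, Rab38, a small GTPase of lysosome-related organelles, and Angpt1, the angiopoietin that activates the receptor Tie2, had mean differences of -1.31, -0.68 and -0.75. A second Angpt1 probe overlapped, with a difference of -0.03. The other Dnah9 probes, well above background on at most 2 arrays, overlapped too, whereas a second Pisd-ps3 probe was below by 0.34.

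The genes with the next largest gaps below Adgrg3 were dim ones. Cdh17 (gap 1.47), Six6 (1.30), Btnl10 (1.14), Septin12 (1.12), Olfr509 (1.12), Ccl24 (1.09), Creg2 (1.07), Mfsd4b2 (1.06), Cdh10 (1.05), Kcnd1 (1.01), Adh6-ps1 (0.97), Defb6 (0.95) and Jakmip3 (0.94) were well above background on 2 of 4 wild-type arrays and on neither Gpr97-deficient array. By the "at least N-fold" rule they ran from 1.11-fold lower for Btnl10 to 3.09-fold lower for Defb6. The wild-type mean in each includes 2 arrays not well above background, so these are not strict bounds. The gaps may rest on such arrays too, and are no measured sizes. Ccl24, a chemokine for eosinophils, was 2.83-fold lower on the same terms. Its signals were -4.16, -4.01, -3.05 and -5.72 in the wild type. Myf6, a muscle regulatory factor, was above background on all 4 wild-type arrays and on 1 Gpr97-deficient array, with a difference of -2.94 (SE 0.90).

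Of the genes nearest to Adgrg3 on chromosome 8, some lay within the wild-type range and some outside it. Of the 4 nearest tested genes before it, Adgrg1, another adhesion receptor, read 4.28, 3.67, 4.42 and 5.01 against 4.20 and 4.97. Dok4, an adaptor of receptor kinases, was inside too. Polr2c, a subunit of RNA polymerase II, was below by 0.04, and its difference of -0.13 was 0.02 with normexp. Ccdc102a, a coiled-coil protein, was below after sham and above after injury. Among the nearest genes after it, Drc7, a dynein regulator, and Tepp were inside. Kifc3, a kinesin, was above by 0.07 (1.70, 1.83, 2.06 and 1.65 against 2.12 and 2.27), and its second probe was above by 0.20. Within 1 Mb of the Adgrg3 probe, 5 of 45 other tested genes were above (11.1%, against 4.32% of all genes) and 1 was below (2.22%, against 6.52%), with a median difference of -0.03. The largest of the 5 was Ccl17, a chemokine for T cells, at a distance of -0.23 Mb from Adgrg3, with -4.01, -4.48, -3.47 and -3.69 against -3.01 and -1.63. Its difference was 1.59, and 0.26 with normexp.

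Chromosome 8 as a whole held more members than most chromosomes. Of its 958 tested genes with a position 6.37% were above, against 3.15% to 5.29% on the other 19 chromosomes, and 8.14% were below, against 4.52% to 8.48%. At a margin of 0.5 and with detection on all 6 arrays it held 5 genes above, and no other chromosome held more than 3. All 5 lay in 1 stretch before Adgrg3, from Zfp868 at a distance of -25.4 Mb over Klhl26, Arrdc2 and Ocel1 to Fam32a at -22.8 Mb. That window was chosen after its values were seen. In the 5 Mb bin from 25 to 20 Mb before Adgrg3, 14 of 96 tested genes (14.6%) were above and 7 were below.

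Zfp868, a zinc finger protein, read -0.03, -0.07, -0.05 and -0.07 in the wild type and 1.17 and 0.65 in the Gpr97-deficient kidney. Its 4 wild-type values were almost the same, and the Gpr97-deficient arrays were 0.97 higher (SE 0.19). Fam32a, a small nuclear protein, read 0.85, 0.66, 0.68 and 0.82 against 1.84 and 1.40. Klhl26, a BTB and kelch adaptor, read -1.22, -1.24, -1.21 and -0.86 against -0.26 and -0.35. Mau2, the partner of the cohesin loader, was above by 0.32 and the lysosomal reductase Ifi30 by 0.25. Other probes in this group did not repeat the difference: the second probe of Fam32a differed by -0.08, the 2 further probes of Mau2 by -0.18 and -0.46, and the 2 of Zfp868 by 0.35 and -0.38. Zfp961, a zinc finger gene whose other probes map to chromosome 8, was above by 0.87 on the brightest probe, with other probes at -0.61, 0.16 and, on a probe not well above background on any array, -0.93. Whether probes differ because they read different parts of a transcript was not tested. Farther along, Banp, a nuclear matrix protein, was below with 1.17, 1.19, 0.63 and 0.84 against -0.31 and 0.18, and Rpgrip1l, a protein of the ciliary transition zone, was below by 0.42.

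**Figure D2:**
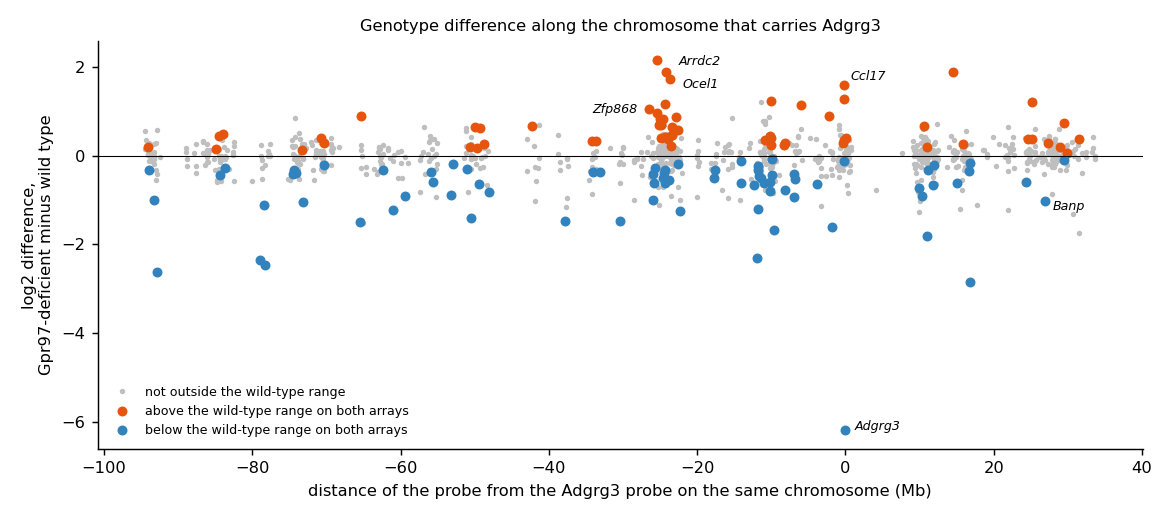
Log2 difference between Gpr97-deficient and wild-type arrays for 958 tested genes of chromosome 8, by distance in Mb from the Adgrg3 probe. Orange and blue points are genes above and below the wild-type range on both arrays. Adgrg3 lies alone at -6.18, and a run of orange points lies 20 to 26 Mb before it.

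Gene groups were then set beside those background shares. There were 55 lists, of which the endothelial one held the largest share above. Of 23 tested endothelial genes 10 were above the range (43.5%, against 4.32% of all genes) and 0 were below. The list's median difference was 0.37, against -0.01 over all genes tested, and 22 of 23 members were higher on average. All 23 were well above background on all 6 arrays. In whole kidney, more endothelial cells and more RNA of these genes per cell cannot be told apart.

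The endothelial members covered surface receptors, junctions and transcription factors. Flt1, a VEGF receptor, read 3.76, 3.72, 3.63 and 3.84 against 4.12 and 4.36, a difference of 0.50 (SE 0.17), and 1 of its 4 other probes was also above, by 0.24. Adgrf5, an adhesion receptor of endothelium and intercalated cells, read -0.02, 0.02, -0.07 and -0.55 against 0.81 and 0.45. Adgrl4, an adhesion receptor of vessels, read 0.07, -0.25, -0.49 and -0.11 against 0.27 and 0.29. Of the junction and secreted proteins, Cldn5 was above by 0.22, Vwf, the platelet-binding factor of vessel walls, by 0.17, and Egfl7 by 0.11. The transcription factors Erg, Sox17 and Sox18 were above by 0.14, 0.08 and 0.08, and the sialomucin Emcn by 0.0032, at the limit.

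The remaining endothelial genes overlapped the wild type. Kdr, the main VEGF receptor, read 2.25, 2.50, 1.49 and 1.94 against 2.51 and 1.85. For Cdh5, the cadherin of endothelial junctions, the values were 0.24, 0.24, 0.09 and 0.72 against 0.49 and 0.81. Pecam1 read -1.70, -1.63, -1.52 and -1.25 against -1.42 and -0.71. Aplnr, the apelin receptor, was the 1 member lower on average, with a difference of -0.69. The median of the list was 0.25 after sham and 0.53 after injury. It was 0.41 within slide 2, 0.35 with normexp, 0.34 with the authors' deposited values, and 0.25 to 0.53 when arrays were left out in turn. The ends of that span repeat the medians by surgery, since they come from leaving out 1 Gpr97-deficient array. Injury itself moved the list little, with a median surgery difference of 0.03. Smooth muscle and renin cell genes were 2 of 15 above (13.3%, against 4.32% of all genes), Myl9 by 0.30 and Myh11 by 0.05, and none below.

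**Figure D3:**
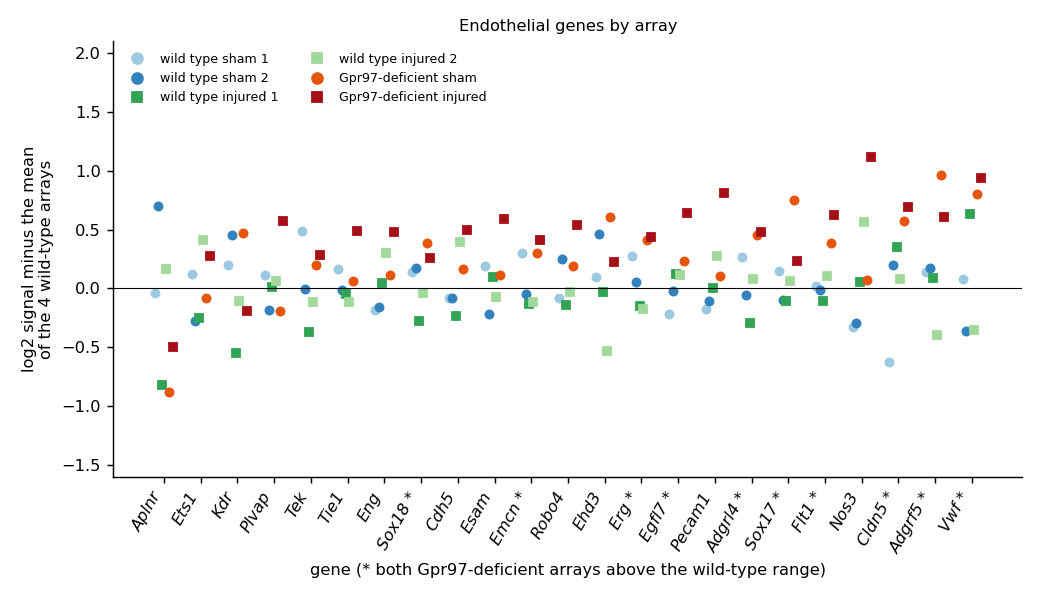
Log2 signal of 23 endothelial genes minus the mean of the 4 wild-type arrays, 1 point per array, ordered by the mean difference. A star marks the 10 genes whose 2 Gpr97-deficient points both lie above all wild-type points.

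Myeloid genes were the next groups by share above. Of 28 tested neutrophil genes 7 were above the range (25.0%, against 4.32% of all genes) and 0 below. The list's median difference was 1.39, and 22 of 28 were higher on average. Chil3, a chitinase-like lectin, read -3.11, -3.61, 0.39 and 0.46 against 0.50 and 0.81. Fpr2, a formyl peptide receptor, read -5.48, -4.81, -3.82 and -4.23 against -3.04 and -3.43. The others above were Fpr1, Clec4e, Ngp, Wfdc21 and Mmp8. The alarmins S100a8 and S100a9 overlapped: S100a8 read -0.74, -1.22, 2.63 and 1.23 against 3.57 and 2.32. The Gpr97-deficient sham array was the one that stood out, since the median of the genes' differences was 2.22 after sham and 0.35 after injury.

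The neutrophil values depended on the processing and on 1 array. Only 9 of the 28 genes were well above background on all 6 arrays. With normexp the list's median was -0.19 and the differences of Fpr1, Fpr2 and Clec4e were below 0. With 1 Gpr97-deficient array per surgery, leaving out the sham array or the injured one only repeats the medians by surgery, 0.35 and 2.22. Red cell genes moved on the same arrays: Hba-a1, an alpha globin, read 1.18, 1.94, 5.18 and 1.0 against 6.20 and 4.34, and Alas2, the erythroid haem enzyme, -3.54, -3.17, 0.58 and -5.38 against 1.64 and -0.89. Wild-type injured array 1 and both Gpr97-deficient arrays were the high ones, so the globin genes overlapped. Of 18 tested red cell genes 2 were above the range (11.1%, against 4.32% of all genes), Epor and Bpgm, and 0 below. The list median on single arrays was from -0.30 to 0.28 in the wild type and 0.40 and 0.24 in the Gpr97-deficient kidney. The red cell list's median difference was 0.39, and -0.09 with normexp. The part of blood content in the myeloid values was not tested.

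Of 25 tested macrophage and monocyte genes 5 were above (20%, against 4.32% of all genes) and 0 below, with a median difference of 0.54. They were the complement subunits C1qa, C1qb and C1qc and the Fc receptors Fcgr1 and Fcgr3. Fcgr3 read -1.61, -0.36, -0.18 and -0.88 against 0.25 and 0.32, and C1qb read -0.60, 0.66, 0.62 and -0.05 against 1.02 and 0.86. In both genes the slide 1 arrays were the low wild-type ones, and within slide 2 the list's median was 0.15, and with normexp 0.19. Lymphocyte genes showed no member above or below, with 27 T and NK genes and 16 B and plasma cell genes tested. Dendritic and MHC class II genes had 0 of 16 above and 2 below (12.5%, against 6.52% of all genes), H2-DMb2 and H2-Ob, both dim.

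**Figure D4:**
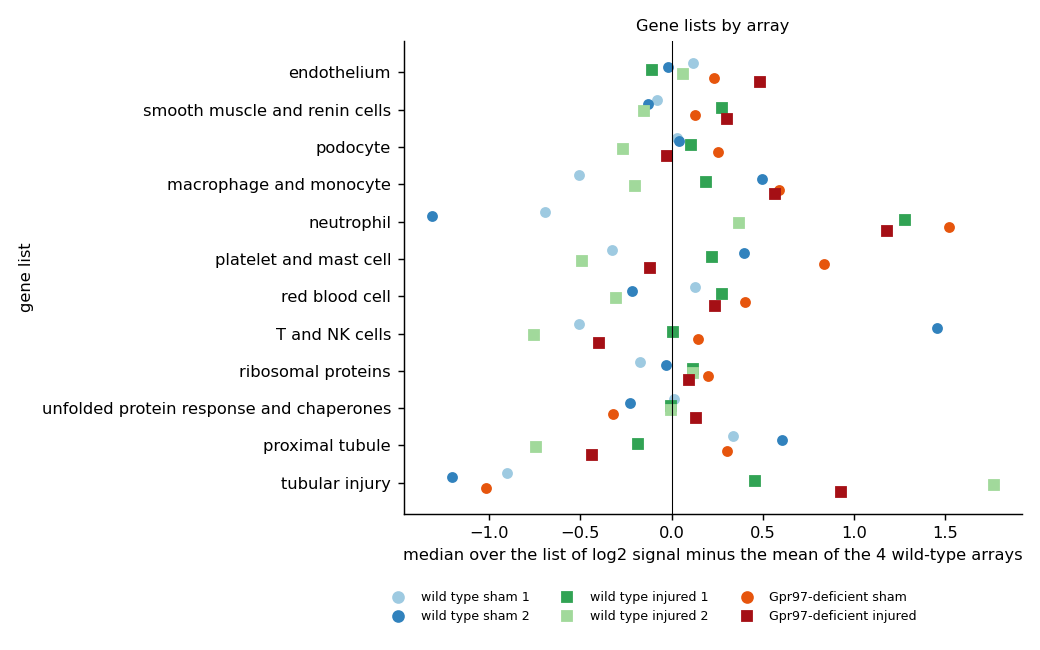
Median over 12 gene lists of the log2 signal minus the mean of the 4 wild-type arrays, 1 point per array. The endothelial medians of the Gpr97-deficient arrays (0.23 and 0.48) lie beyond all wild-type medians (-0.11 to 0.12), whereas the red cell and tubular injury medians overlap.

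A small group of chaperones lay below the range. Of 35 tested genes of the unfolded protein response and chaperones 5 were below (14.3%, against 6.52% of all genes) and 1 was above, and the list's median was -0.10, which was -0.01 within slide 2 and 0.01 with normexp. All 5 are heat shock chaperones of the cytosol or mitochondria and none is a chaperone of the endoplasmic reticulum. Hsph1, an exchange factor for HSP70, read 4.13, 4.13, 4.01 and 3.84 against 3.57 and 3.66. The mitochondrial folding pair Hspd1 and Hspe1 read 6.34, 6.54, 6.27 and 6.29 against 6.12 and 5.96, and 5.02, 4.97, 5.03 and 5.0 against 4.8 and 4.51. Dnaja1 and Dnajb1, which feed clients to HSP70, were below by 0.19 and 0.15. A second Dnajb1 probe was below by 0.17 and a second Hspd1 probe by 0.05, while the 2 further Dnaja1 probes overlapped. Dnajb1 was named after its values were seen. The inducible HSP70 gene Hspa1a overlapped, with 3.39, 2.39, 2.60 and 2.64 against 2.35 and 2.44. The gene above was Eif2ak3, the PERK kinase, with 0.49, 0.61, 0.56 and 0.35 against 0.71 and 0.90.

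The promoters of 2 of these chaperones are given because these members lay below the range together and heat shock genes share a known element. Windows run from 250 bases before the start to 50 after (RefSeq, GRCm38.p6, 5′ to 3′ on the gene's strand), and capitals mark GAANNTTC or TTCNNGAA, both palindromes and so the same on either strand, with overlapping matches joined.

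Hspe1, chr1:55087898-55088197, plus strand: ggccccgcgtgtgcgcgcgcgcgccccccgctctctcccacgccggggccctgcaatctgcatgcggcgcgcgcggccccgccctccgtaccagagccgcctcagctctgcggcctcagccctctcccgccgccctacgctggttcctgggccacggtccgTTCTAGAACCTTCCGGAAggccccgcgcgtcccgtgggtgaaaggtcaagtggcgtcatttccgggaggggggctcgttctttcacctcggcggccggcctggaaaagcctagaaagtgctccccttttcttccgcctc

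Hsph1, chr5:149636266-149636565, minus strand: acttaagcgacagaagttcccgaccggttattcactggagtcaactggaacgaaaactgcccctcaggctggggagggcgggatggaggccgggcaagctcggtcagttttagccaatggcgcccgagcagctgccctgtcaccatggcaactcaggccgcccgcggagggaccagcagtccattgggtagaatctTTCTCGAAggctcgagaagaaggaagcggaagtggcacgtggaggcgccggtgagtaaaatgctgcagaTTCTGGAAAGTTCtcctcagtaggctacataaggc

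Hspd1 starts on the other strand, and 1 of its windows holds the same 3 matches, at the same positions, as that of Hspe1. Of the 5 chaperones below the range 4 had a match in at least 1 window, Dnajb1 being the exception. Hspd1 and Hspe1 count there with the same matches, and neither Hspd1 nor Dnaja1 had a match in its other windows. Among list members inside the range 5 of 22 with a window had one, and among all tested genes with a window 1788 of 12414 (14.4%). All genes below the range were close to that share, at 15.4% of 604. A match is a run of letters and not a measured binding site, and its part in the values was not tested.

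Further groups had smaller shares above the range than the endothelial and myeloid lists. Of all genes tested 4.32% were above and 6.52% below. Ribosomal protein genes had 8 of 73 above (11.0%) and 0 below, with 66 of 73 higher but by a median of only 0.15, which was -0.01 without the Gpr97-deficient sham array, 0.32 without the injured one, 0.02 in the authors' deposited values and 0.36 with normexp. Rps16 read 7.26, 7.58, 7.71 and 7.69 against 7.88 and 7.80. Rps18, the second of them, differed by 0.31 and by -0.10 in the authors' deposited values. Of 33 cell death genes 4 were above (12.1%) and 1, Diablo, was below (3.03%). Those above were the BH3-only factors Bcl2l11 and Bbc3, the death receptor Fas and the pore protein Gsdmd. Bcl2l11 read -0.37, -0.35, -0.16 and -0.74 against 0.64 and 0.28, and Bbc3 -0.95, -0.90, -0.66 and -0.62 against -0.39 and 0.16. Fas and Bbc3 are also in the p53 target list, which had 2 of 27 above (7.41%) and 2 below (7.41%), Tigar and Rrm2b.

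Of 34 NRF2 target genes 4 were below (11.8%, against 6.52% of all genes), namely Osgin1, Abcc2, Prdx1 and Gstm3. Above lay 1, the ferritin chain Fth1. Osgin1, an oxidative stress gene, read 3.37, 3.95, 3.50 and 3.49 against 3.06 and 2.89, and its second probe was below by 0.25. The spliceosome list held 6 genes above and 4 below of 49 (12.2% and 8.16%, against 4.32% and 6.52% of all genes). Tra2a and Srsf6 were farthest below, at 0.26 and 0.17. A second Srsf6 probe overlapped, with a difference of 0.07. Of the further Tra2a probes 1 was below by 0.31 and 1 overlapped, with a difference of -0.19. Transporter and conjugation lists held 1 of 59 and 2 of 51 above (1.69% and 3.92%). Below they held 2 of 59 and 3 of 51 (3.39% and 5.88%). Slc22a19, an organic anion transporter of the proximal tubule, read 1.71, 2.12, 1.54 and 0.33 against -0.27 and 0.07. Wdfy1, one of 6 tested genes known to vary between mouse strains, read 0.79, 1.39, 2.32 and 0.58 against 2.59 and 3.17, and 1 of its 2 other probes was above as well.

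The pathway of the receptor itself was mostly inside the range, though with larger shares above it than all genes tested. Of 21 tested adhesion receptor genes 3 were above (14.3%, against 4.32% of all genes), namely Adgrf5, Adgrl4 and Adgrb2. Below lay 2 (9.52%, against 6.52%), Adgrg3 itself and Adgra3, the latter by 0.04. Adgrf5 and Adgrl4 are also counted in the endothelial list. Of 44 G protein signalling genes 5 were above (11.4%, against 4.32% of all genes) and 0 below, and the list's median was 0.08. They were Rgs4, which speeds GTP hydrolysis (-3.29, -3.81, -3.21 and -3.35 against -2.75 and -2.62, with a difference of -0.17 under normexp), the arrestin Arrb2, the kinase Grk6 and the beta and gamma subunits Gnb4 and Gng11. Gnb4 and Gng11 were above by only 0.02 and 0.009. Further Gnb4 probes overlapped, with differences of -0.01 and -0.10, and the direction of Gnb4 reversed with normexp. Of 22 Sema3A axis genes 2 were above (9.09%, against 4.32% of all genes), the kinases Fes and Fyn, and 0 below. Fes read -0.30, 0.25, 0.47 and 0.16 against 0.54 and 0.66. Sema3a overlapped, at -2.90, -3.93, -6.22 and -3.12 against -4.21 and -4.34, and so did its receptor Nrp1, at -0.58, -0.27, -0.08 and -0.33 against -0.26 and 0.48.

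Some lists held no member or 1. Genes that surgery moves have a wider wild-type range, which makes the rule harder to meet. Yet the neutrophil list, with a median surgery difference of 1.31, had 7 of 28 above (25.0%, against 4.32% of all genes). The median surgery difference was -0.53 for the thick limb list, -0.45 for the cell cycle and -0.42 for the TCA cycle. The part of surgery in these counts was not tested. Tubular injury genes, with a median surgery difference of 2.09, had 0 of 30 above and 0 below and a median genotype difference of 0.02. The 41 proximal tubule genes had 0 above and 1 below, Keg1, and a median of -0.16. The thick limb and distal tubule list had 0 of 23 on either side, although 22 of 23 were higher on average, with a median of 0.25, which was -0.07 within slide 2. Cell cycle genes had 0 of 49 outside on the same side with both arrays, and the TCA cycle and respiratory chain 0 of 47.

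**Figure D5:**
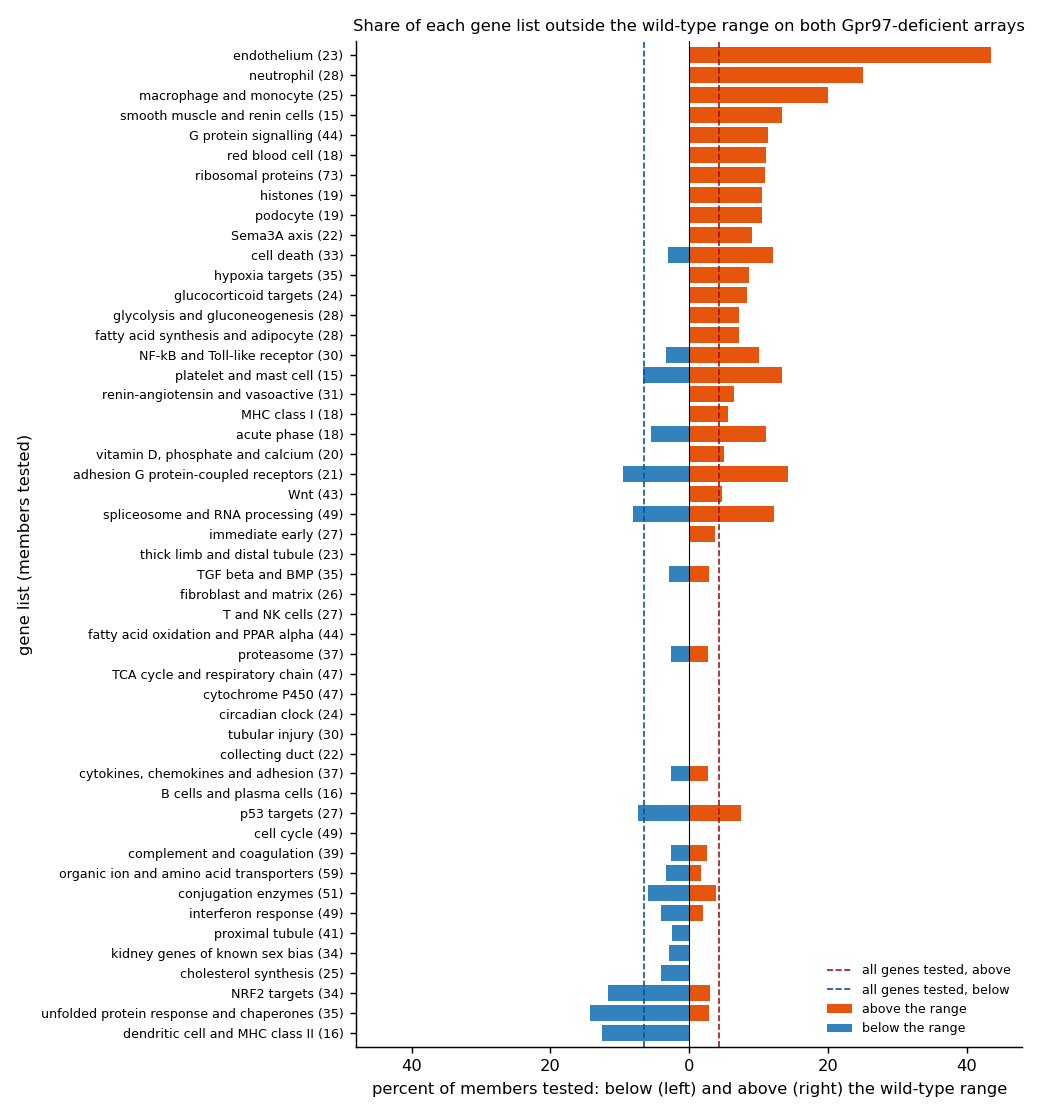
Percent of the tested members of each gene list (lists with at least 15 tested) above and below the wild-type range on both Gpr97-deficient arrays. Dashed lines mark all genes tested, 4.32% above and 6.52% below. Endothelium has the longest bar, at 43.5% above.

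Some genes lay on opposite sides after the surgeries. In 275 genes (1.40%) the Gpr97-deficient sham array was above and the injured array below all wild-type arrays, and in 230 (1.17%) the reverse held. The interaction of genotype and surgery called 0 genes with limma (0%), and 292 had an unadjusted p under 0.05. Of 49 tested cell cycle genes 9 showed the first pattern (18.4%, against 1.40% of all genes) and 0 the second. Pbk, a mitotic kinase, read -4.11, -3.22, -4.17 and -4.49 against -0.62 after sham and -7.82 after injury. Cdk1, the kinase that starts mitosis, and Mxd3, a MYC network factor of S phase, read -2.43 and -2.48 after sham in the Gpr97-deficient kidney. All 3 were not well above background on the Gpr97-deficient injured array, and Cdk1 and Mxd3 were well above background on only 2 and 1 of the 4 wild-type arrays. As a list, 49 cell cycle genes had a median difference of 1.70 after sham and -0.63 after injury. Each of these rests on 1 array per surgery. In the reverse pattern Lhcgr, the receptor of luteinising hormone, read -4.97, -3.81, -4.53 and -4.12 against -7.57 after sham, where it was not well above background, and -2.09 after injury.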

How the data were processed

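Kidney RNA was read on 6 single-colour Agilent arrays. Per the file headers, the deposited scanner files hold intensity values from Feature Extraction 10.7.1.1 (slide 1) and 10.7.3.1 (slide 2), with probe positions in mm9. The flags for background, saturation and outliers are other columns of the deposited files. The authors' deposited table holds log2 values, whose exact normalization neither the labels nor the headers state. The submitters' processing notes name limma. Its column medians were 6.07 to 6.09, and its ranks matched each array's scanner intensity (Spearman's rho at least 0.99997).

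Processed signals were taken as log2 minus the 75th percentile of the array. Control and outlier spots were left out (43379 of 45018 spots used) and spots of a probe averaged. Of 41174 probes 27668 were named by accession and 6057 by symbol or synonym through RefSeq genes, and 7449 kept the name in the file. A gene took its brightest probe and was tested if well above background on at least 2 arrays (19616 of 27345 genes). Limma 3.58.1 in R 4.3.3 (data.table version 1.17.8) fitted genotype and surgery as additive terms (3 residual degrees of freedom), two-sided, and calls needed a p below 0.05 after Benjamini-Hochberg adjustment. A second fit gave the interaction, which takes its spread from the wild-type pairs alone. The arrays of each such pair also differ in slide and scanner, and the injured pair in Xist and Y-linked genes. Slide, scanner and sex therefore cannot be told apart from other spread in the SEs of either fit. A gap is the distance between the nearest arrays of the genotypes. A difference is Gpr97-deficient minus wild type. A value within slide 2 is the mean of its sham and injured pairs. "At least N-fold" sets the brighter group's mean against the higher of the dim probe and the lowest signal well above background on each array, where every array of a genotype is not well above background.

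The genotype fit was tested on simulated data, drawn with each gene's fitted spread. Of 50 genes changed by 1 log2 unit 0 were called, of 50 changed by 2 units 29, and of 50 changed by 4 units 43. Among the unchanged genes of 19607 simulated, 3 were called and 1624 lay outside the range. On the arrays themselves 848 of 19616 genes lay above the range and 1279 below it. The comparison, the 55 lists and the rules were chosen with earlier results of these data known. Named genes were Adgrg3 with 4 neighbours each side, the 15 largest gaps each way without predicted names, up to 4 members of a list outside the range or else 2 by size, 3 genes of each opposite pattern and 3 on each side of the limit. Others were named after their values were seen, and a few genes that the rule names are not reported here. No 2 arrays were identical, and the number of arrays limits the precision. Alternatives covered background correction, scaling, filters, probes, slide, variance prior and leaving out arrays.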

Additional observations from a re-analysis of the deposited data

Results flagged for a closer look

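For 6 named genes the Gpr97-deficient arrays lay on opposite sides of all wild-type arrays after sham and after injury. The interaction (genotype difference after injury minus that after sham) was -6.54 for Pbk (SE 0.69), -4.99 for Mxd3 (SE 0.73) and -4.92 for Cdk1 (SE 0.60). For Camp, an antimicrobial peptide of neutrophil granules, it was -3.98 (SE 0.65). It was 5.42 for Lhcgr (SE 0.84) and 0.31 for Ccdc102a (SE 0.40). None had a limma adjusted p below 0.99, and each estimate rests on 1 Gpr97-deficient array per surgery. The low Gpr97-deficient array was not well above background for Pbk, Mxd3, Cdk1 and Camp (the injured array) and for Lhcgr (the sham array), so the sizes of these 5 interactions were not measured exactly. Of 6 arrays, Mxd3 was well above background on 2, Cdk1 and Camp on 3, Pbk and Lhcgr on 4, and Ccdc102a on 6. The SEs rest on the 2 wild-type pairs, whose arrays also differ in slide and scanner.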

How the results depend on the processing

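The limma count for genotype stayed at 0 under every alternative run except the variance trend with robust prior, which called 1 gene (639 genes had an unadjusted p under 0.05, and 121 to 1278 under the alternatives). The interaction stayed at 0 in all 8 alternatives, with 245 to 559 at an unadjusted p under 0.05. The counts outside the range were 848 above and 1279 below. Below the range lay 3759 genes with normexp and 2755 with no filter on dim probes, which tests more genes. On slide 2 alone, with fewer arrays in the range, 2195 were above and 2716 below. A gap of at least 0.5 left 39 above and 117 below, and a gap of at least 1 left 12 and 30. Leaving out single arrays gave 1142 to 3239 above and 1466 to 3468 below. Of the 848 genes above, 362 were kept with normexp, 740 with quantile normalization and 738 with the authors' deposited values, and of the 1279 below 1039, 899 and 890. With no filter 24.7% of the genes outside were above.

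Direction reversed with normexp for these named genes outside the range: Adgb (-0.45), Cenpm (-0.44), Cfap45 (-0.49), Clec1b (-0.18), Clec4e (-0.18), Fpr1 (-0.32), Fpr2 (-0.20), Fyn (-0.49), Gnb4 (-0.29), Gpam (-0.23), Hpx (-0.67), Nell2 (-0.29), Nostrin (-0.33), Nppb (-0.60), Olfr1148 (-0.34), Olfr482 (-0.48), Pga5 (-0.22), Polr2c (0.015), Psma2 (0.12), Rgs4 (-0.17), Slain1 (-0.44), Slc2a3 (-0.34), Slc7a15 (-0.66), Tlr6 (-0.63), Tlr7 (-0.16) and Tssk6 (-0.0056). Rps18 reversed in the authors' deposited values (-0.10). The cause was not tested. No paired analysis was possible because replicate numbers were given in accession order and mark no shared source.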
